A study of Mus musculus with 8 samples.

Results

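This report follows the complement genes C1qa, C1qb, C1qc, C5ar1, C3ar1, C3, C4b, Cfb and Cfp on 8 Affymetrix expression arrays of mouse spleen and lymph node samples. The members were all probe sets that carried exactly 1 gene symbol in the platform annotation, where that symbol was one of these 9 genes. The rule found 13 probe sets for 7 of the 9 genes, out of 45037 probe sets and 18193 genes measured. C3 and C4b had no such probe set and are not analysed here. C5ar1 was included because its p-value for genotype was among the smallest in these data, so genotype values are given for the members as a description with no test.

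There were 4 groups of 2 arrays, from spleen or lymph node of Aire wild-type or Aire knockout mice, with the arrays of a group named A and B. Aire is the autoimmune regulator, and the study concerned cells that express it outside the thymus. The labels give tissue, genotype and letter only. Strain, age, sex, the knockout allele, any sorting of cells, the number of animals behind an array and the meaning of the letters are not given there.

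Complement is a cascade of plasma and tissue proteins that tags microbes and dying cells and recruits leukocytes to them. C1q, built from A, B and C chains, recognises bound antibody and cell debris and starts the classical pathway; unlike most components, which come from liver, it is made mainly by macrophages and dendritic cells. Factor B, from Cfb, and properdin, from Cfp, form and stabilise the convertase of the alternative pathway, and the fragments C3a and C5a released downstream act on leukocytes through the receptors C3ar1 and C5ar1.

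Values are microarray signals, 1 per probe set on a linear scale, after each array was shifted to a common median. Differences are on the log2 scale with their standard error, after signals under the floor of 9.58, the 20th percentile of all values, had been raised to it. The probe set with the highest mean stood for each gene in the fits, and genes with 2 or more arrays above 59.0, the median of all values, were tested. All 7 measured members passed this filter, among 11575 genes. Levels are compared between arrays for the same probe set and never between genes.

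Aire, the targeted gene, had signals of 5037 and 5204 on the wild-type spleen arrays A and B and 1009 and 2376 on the knockout ones. Its lymph node signals were 3052 and 3535 for wild-type and 791 and 1137 for knockout. Every knockout array lay below every wild-type array, and no knockout array came near the floor. Whether the probe set lies in the part removed by the knockout is not known here, so its residual signal checks the labels by direction only.

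Ccr7, the receptor that guides mature dendritic cells, ranged from 8241 to 14750 over the 8 arrays and Cd83, a surface protein of those cells, from 5856 to 9824. Of 6 measured spleen markers 3 did not pass the filter, and Spic, which marks red pulp macrophages, overlapped between the tissues at 1238 to 2443 in spleen and 634 to 1544 in lymph node. Xist, expressed from the inactive X chromosome, was at 14.6 and 23.1 on the knockout B arrays and between 3565 and 7624 on the other 6. The Y-linked gene Eif2s3y was at 21.2 and 3.80 on the wild-type A arrays and between 521 and 1988 on the others, so the mix of sexes differed between genotypes and between letters. In each group 1 of these genes differed by a large factor between arrays A and B, so the arrays of a group did not hold the same RNA.

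The 3 C1q genes and C5ar1 followed different patterns over the arrays, and sequences before annotated transcript starts are shown for reference beside those values. C1qb, C1qc and C1qa lie next to each other within 18719 bases of chromosome 4. RefSeq windows were at hand for 5 of the 7 measured members, and the 250 bases before an annotated transcript start are given for 3 of them, 5′ to 3′ on the gene's strand in GRCm38.p6. All 3 genes are on the minus strand. Capitals mark the letters GAGGAA, the core bound by the myeloid factor PU.1, on either strand. The windows are chr4:136886201-136886450 for C1qb, chr4:136892915-136893164 for C1qc and chr7:16259339-16259588 for C5ar1. The annotated C5ar1 gene reaches base 16259540, so most of its window lies inside the gene, before an internal start. The C1qc gene reaches base 136892936, so its window overlaps the gene slightly, while that of C1qb lies outside it.

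C1qb: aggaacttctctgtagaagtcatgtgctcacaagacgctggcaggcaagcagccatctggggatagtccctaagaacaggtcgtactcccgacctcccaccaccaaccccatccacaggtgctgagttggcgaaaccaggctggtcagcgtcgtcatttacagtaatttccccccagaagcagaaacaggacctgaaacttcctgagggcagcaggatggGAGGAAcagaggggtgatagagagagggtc

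C1qc: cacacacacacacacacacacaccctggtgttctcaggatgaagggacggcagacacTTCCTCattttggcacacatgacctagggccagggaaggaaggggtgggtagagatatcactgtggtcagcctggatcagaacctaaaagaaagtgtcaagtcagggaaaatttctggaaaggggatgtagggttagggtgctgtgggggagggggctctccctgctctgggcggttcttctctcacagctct

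C5ar1: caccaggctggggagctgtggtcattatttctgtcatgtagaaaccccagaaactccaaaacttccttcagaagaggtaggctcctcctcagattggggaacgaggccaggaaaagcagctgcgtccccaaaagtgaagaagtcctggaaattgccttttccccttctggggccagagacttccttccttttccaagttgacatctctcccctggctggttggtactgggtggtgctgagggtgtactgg

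GAGGAA was present once in the C1qb window, 30 to 25 bases before the start, and once in that of C1qc on the opposite strand, 193 to 188 bases before it. It was in 23.3% of 32851 windows of this length, and was not found in those of C5ar1, C3ar1 or Cfp. Of the other motifs searched on both strands, TGANTCA, the AP-1 site, was in the C3ar1 window, as it was in 6.75% of all windows, and TATAAA was there too, as in 12.4%. The interferon-response core, 2 runs of GAAA with 2 bases between them, found in 2.98% of all windows, and the STAT palindrome TTCNNNGAA, found in 7.02%, were in none of the 5. The motifs do not overlap in these windows, and a match describes the letters only.

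C5ar1, the receptor through which the fragment C5a attracts and activates myeloid cells, separated the 4 groups. On probe set 1439902_at its signals were 12.1 and 25.1 in wild-type spleen and 1868 and 537 in knockout spleen, each given as array A and then B. Lymph node signals were 322 and 248.5 for wild-type and 2964 and 2604 for knockout. The groups stood in the order knockout lymph node, knockout spleen, wild-type lymph node and wild-type spleen, with no overlap between neighbours. The same order without overlap was found in 6 of the 11575 genes, which is 0.0518% of them. C5ar1 was also the 1 member of 7 with all 4 knockout arrays above all 4 wild-type ones, as for 1.43% of all genes, and with knockout higher without overlap in each tissue, as for 3.05%. That order contains the genotype difference for which C5ar1 was chosen and was noted after its values were seen, so nothing is read from it.

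The C5ar1 difference, knockout minus wild-type, was 5.84 ± 0.64 in spleen, a 57.3-fold ratio from wild-type signals near the floor. In lymph node it was 3.30 ± 0.64, or 9.82-fold, and averaged over the tissues 4.57 ± 0.45, or 23.7-fold. Between arrays of letter A the difference was 7.27 in spleen and 3.2 in lymph node. Between arrays of letter B it was 4.42 and 3.39. The spleen difference exceeded that in lymph node by 2.55 ± 0.90, and by 1.03 among the B arrays alone.

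These C5ar1 values rest on 1 of its 2 probe sets, and 1439902_at is listed against a GenBank record outside RefSeq. The second, 1422190_at, is the one listed against a RefSeq transcript and was dim throughout, with 29.1 and 6.42 in wild-type spleen, 47.0 and 13.1 in knockout spleen, 32.5 and 44.1 in wild-type lymph node and 59.8 and 82.5 in knockout lymph node. Its knockout arrays lay above the wild-type ones in lymph node and overlapped with them in spleen. Its differences were 0.57 in spleen and 0.89 in lymph node. With the mean of both probe sets the C5ar1 difference was 3.21 in spleen, 2.09 in lymph node and 2.65 averaged.

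C3ar1, the receptor for the fragment C3a, was set apart mainly by tissue on its brightest probe set. On 1419483_at it had signals of 11.0 and 19.7 in wild-type spleen, 108 and 3.88 in knockout spleen, 128 and 84.6 in wild-type lymph node and 554 and 302 in knockout lymph node. Knockout lay above wild-type in lymph node with no overlap, while in spleen 1 knockout array was above both wild-type arrays and the other under the floor. The difference was 1.97 ± 1.05 in lymph node. It was 1.13 ± 1.05 in spleen, where it was 3.30 within letter A and -1.04 within letter B.

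The other C3ar1 probe sets were dimmer. 1419482_at had at most 11.3 in spleen, against 32.1 and 23.6 for wild-type lymph node and 98.6 and 86.2 for knockout, the same order as 1419483_at in lymph node. 1442082_at exceeded the pooled median on 0 arrays and had its lowest signals, 0.258 and 2.11, in wild-type lymph node, so the probe sets of C3ar1 disagree there.

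**Figure D1:**
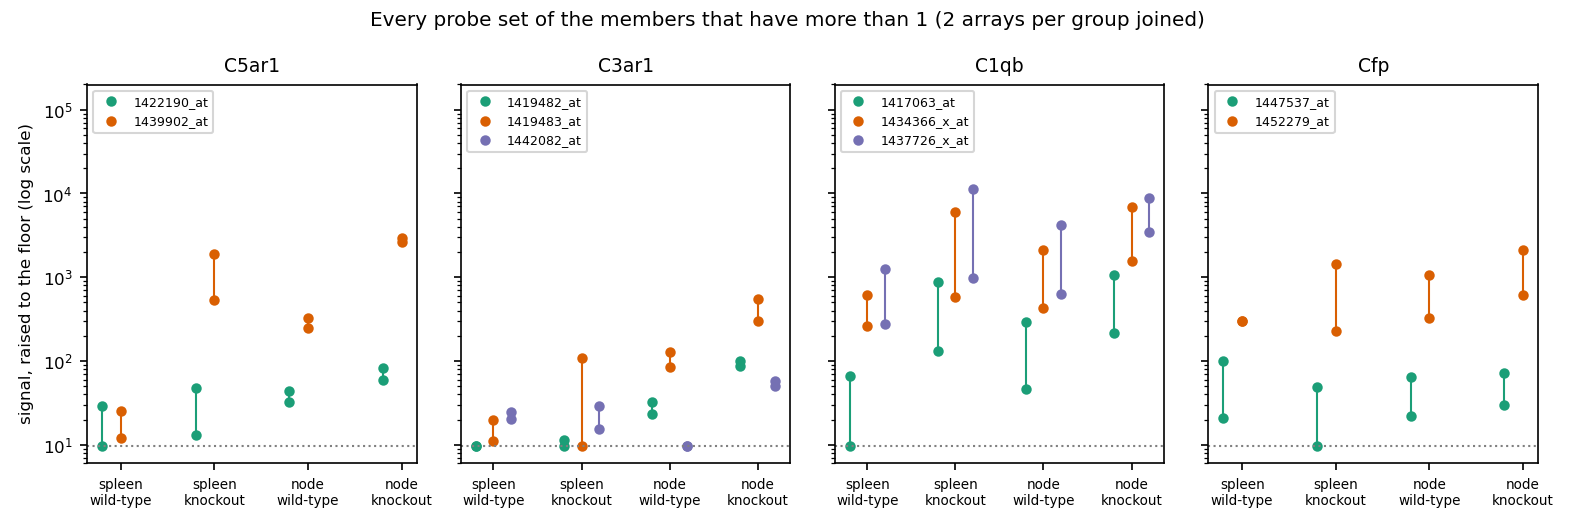
Signal (log axis, raised to the floor shown as a dotted line) of every probe set of C5ar1, C3ar1, C1qb and Cfp in the 4 groups, where node means lymph node, each point is 1 array and a line joins the 2 arrays of a group. For C5ar1, 1439902_at spans 12.1 to 2964 and 1422190_at stays under 83, while the 3 probe sets of C1qb span different ranges and are higher on array A in each group.

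The C1q chains had a higher signal on array A than on array B in every group, and for all 3 the genotypes overlapped in lymph node. C1qa had 152 and 6.77 in wild-type spleen, 800 and 124 in knockout spleen, 525.5 and 6.47 in wild-type lymph node and 1326 and 323 in knockout lymph node. The 2 wild-type B arrays were under the floor. C1qc had 160 and 41.4, then 1531 and 189, then 591 and 37.6, then 1764 and 408 in the same order of groups. C1qb, on 1437726_x_at, had 1247 and 279, 11270 and 986, 4235 and 626, and 8822 and 3432. In lymph node the wild-type A array lay above the knockout B array for all 3 chains, which is where the genotypes overlapped. In spleen they overlapped for C1qa and C1qb, while both knockout arrays of C1qc were above its wild-type ones.

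The step from array B to array A was 3.98, 2.68, 5.78 and 2.04 for C1qa, with the spleen groups first and wild-type before knockout. It was 1.95, 3.02, 3.98 and 2.11 for C1qc and 2.16, 3.52, 2.76 and 1.36 for C1qb. The genotype difference, averaged over tissues, was 3.13 ± 1.5 for C1qa, 2.62 ± 1.11 for C1qc and 2.13 ± 1.0 for C1qb, which is of the size of these steps. The spleen values were 3.05 ± 2.12, 2.73 ± 1.58 and 2.50 ± 1.41, and those of lymph node 3.21 ± 2.12, 2.51 ± 1.58 and 1.76 ± 1.41. Compared within a letter the knockout array was the higher in both tissues for each chain, by 1.06 for C1qb in lymph node within A, the smallest of these, up to 5.07 for C1qa in lymph node within B, where the wild-type signal was at the floor. Without the wild-type B array the lymph node difference was 0.32 for C1qa, 0.52 for C1qc and 0.38 for C1qb, and without knockout array A the spleen difference was 1.71 for C1qa, 1.22 for C1qc and 0.74 for C1qb.

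The other probe sets of C1qb gave the same order of arrays A and B in every group. 1434366_x_at had 616 and 262, 6004 and 578, 2085 and 430, and 6930 and 1580 over the groups in that order, and 1417063_at had 66.8 and 5.86, 886 and 130, 296 and 46.1, and 1052 and 213. Their knockout minus wild-type differences were 2.21 and 3.75 in spleen and 1.80 and 2.02 in lymph node.

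Properdin, the product of Cfp on the X chromosome, resembled the C1q chains in 3 of the 4 groups. On 1452279_at Cfp had 299.5 and 299 in wild-type spleen, 1424 and 229 in knockout spleen, 1064 and 327 in wild-type lymph node and 2136 and 614 in knockout lymph node. The genotypes overlapped in both tissues. Knockout differed from wild-type by 0.93 ± 1.01 in spleen, where the difference was 2.25 within letter A and -0.39 within letter B, and by 0.96 ± 1.01 in lymph node. The second probe set, 1447537_at, was dim, between 1.65 and 99.6, and did not follow this order, with its highest signal on wild-type spleen array B.

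Cfb, the gene of factor B, had the smallest standard errors of the 7 members. It had 3106 and 3346 in wild-type spleen, 2787 and 3301 in knockout spleen, 1071 and 938 in wild-type lymph node and 2074 and 1060 in knockout lymph node. Every spleen array lay above every lymph node array, and the genotypes overlapped in both tissues. Knockout differed from wild-type by -0.09 ± 0.39 in spleen. The lymph node difference was 0.56 ± 0.39, and 0.08 without knockout array A.

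**Figure D2:**
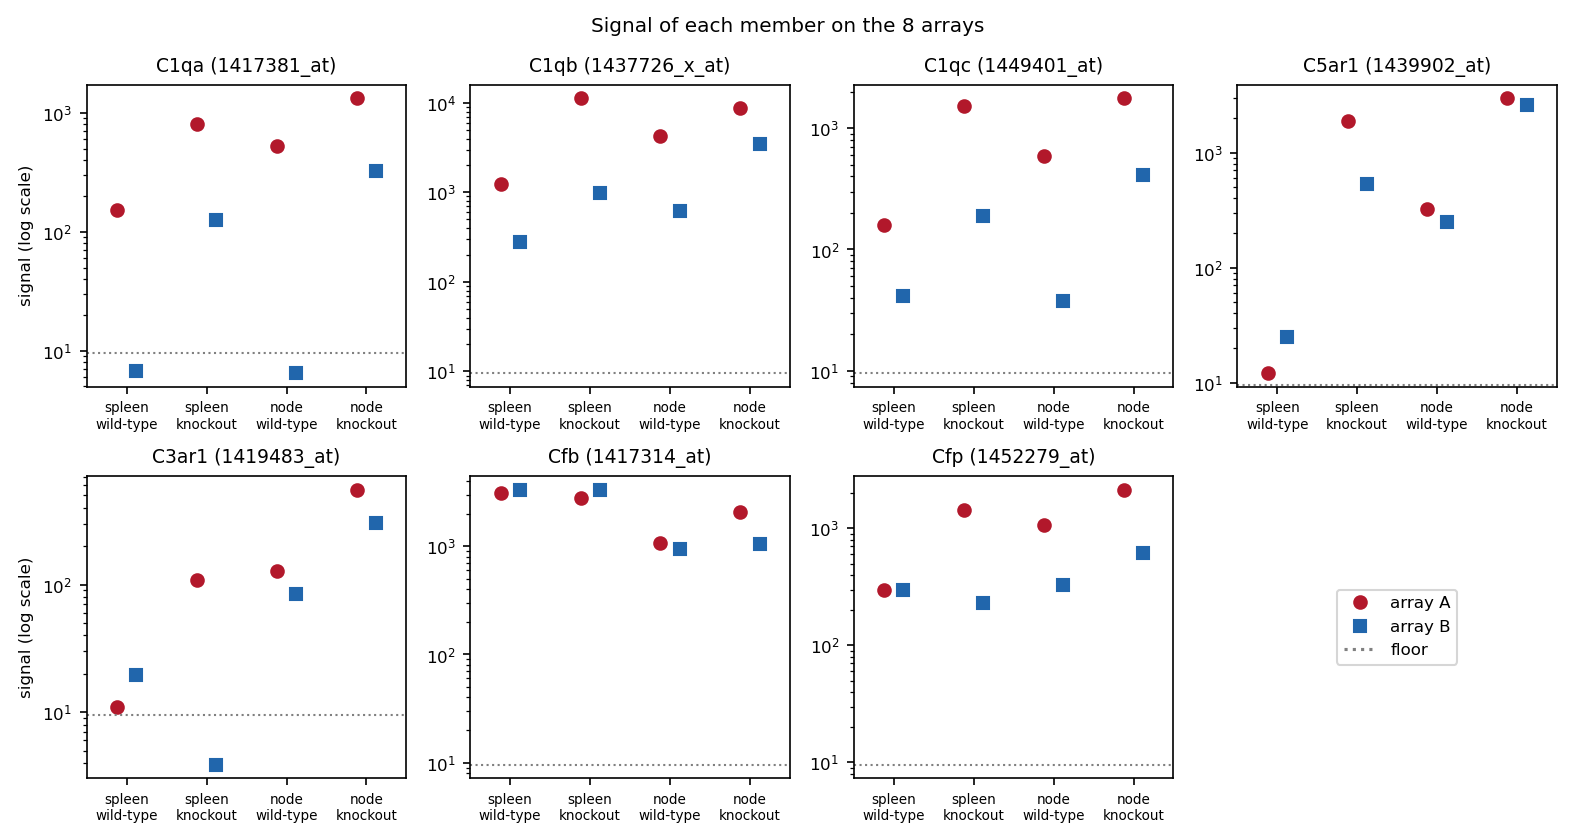
Signal (log axis) of the probe set used for each of the 7 measured members on the 8 arrays, with circles for array A, squares for array B and a dotted line at the floor of 9.58; node means lymph node. C5ar1 orders the groups with no overlap, C1qa, C1qb and C1qc are higher on array A in all 4 groups, and Cfb is higher on all 4 spleen arrays.

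Across the members the knockout minus wild-type difference had a median of 2.50 in spleen and 1.97 in lymph node, against medians of -0.10 and -0.03 over all genes tested. Its sign was positive for 6 of 7 in spleen and 7 of 7 in lymph node, where 42.5% and 46.8% of all genes had a positive value, and for 7 of 7 on average, beside 43.3%. The genotype groups did not overlap for 2 of 7 members in spleen, C5ar1 and C1qc, both higher in knockout, as for 13.3% of all genes. In lymph node this held for C5ar1 and C3ar1, 2 of 7 again, beside 14.5% of all genes. By limma 0% of genes passed an adjusted p of 0.05 for genotype in spleen, in lymph node or on average, and 8.35%, 3.35% and 7.96% had an unadjusted p under 0.05. As genotype was used to choose among these genes, nothing is read from those counts. With a covariate for Y-linked signal the averaged difference was 5.21 for C1qa, 4.03 for C1qc and 3.31 for C1qb, and without both knockout A arrays it was 1.95, 1.34 and 0.91. For Cfp it was -0.165 without both. The median in spleen was 0.74 without knockout array A and 4.24 without knockout array B.

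For 3 of 7 members, the neighbouring genes C1qa, C1qb and C1qc, array A was clearly above array B in all 4 groups. Cfp had the same order in 3 groups and was level in wild-type spleen, at 299.5 against 299. Counting any size of difference, which adds Cfp to the C1q genes, array A was above array B throughout for 8.29% of all genes tested. The letters were not used to choose the members, but this pattern was noted after the values were seen.

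Most tested macrophage and monocyte markers were higher in knockout on average, as these genes were, and their part in the values was not tested. All 15 macrophage markers were measured and tested, 0 of them were at the floor throughout, and 14 of 15 were higher in knockout on average, with a median difference of 1.65. Their summed signal ranged from 5236 to 5814 in wild-type spleen, 4520 to 17360 in knockout spleen, 3973 to 5613 in wild-type lymph node and 6085 to 10930 in knockout lymph node. It was higher on array A than on array B in each group. Knockout spleen array B, at 4520, lay below both wild-type spleen arrays. Spic, which was lower in knockout on average, made up 1624 and 2443 of the wild-type spleen sums and 1238 of that one. By group means 14 of 15 markers were higher in knockout spleen. Siglec1, a lectin of tissue macrophages, had 10.4 and 27.4, 146 and 70.5, 15.7 and 2.28, and 268 and 159 over the groups. It separated the genotypes as C5ar1 did, and as 1.43% of all genes did. Lyz2, the lysozyme of macrophages and monocytes, taken from the monocyte list, had 2177 and 204, 10600 and 2229, 7767 and 774, and 10730 and 2723. Its A array was the higher in each group, as for C1q. Array A was above array B in all 4 groups for 5 of 15 macrophage markers and 2 of 4 tested monocyte markers. Each array measures the RNA of many cells, and whether these were sorted is not in the labels. A larger share of cells of a type and more RNA per cell cannot be told apart.

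Of 8 monocyte markers 6 were measured and 4 tested, with 3 of those 4 higher in knockout, and their sum ran from 1963 to 3625 in wild-type spleen, 3274 to 13230 in knockout spleen, 2421 to 9482 in wild-type lymph node and 4042 to 12610 in knockout lymph node. On the A arrays Lyz2 made up 2177, 10600, 7767 and 10730 of these sums, in the same order of groups. Cx3cr1 was also higher on array A in all 4 groups, while F13a1 was so in 1 and Nr4a1 in 2. Neutrophils also carry C5ar1. Of 11 measured neutrophil markers 9 did not pass the filter. Their sum was 509 and 522 in wild-type spleen, 9863 and 289 in knockout spleen, 213 and 140 in wild-type lymph node and 314 and 105 in knockout lymph node. On knockout spleen array A, S100a8 was at 2954 and S100a9 at 4833. Mast cell and basophil markers summed to between 607 and 1047 over all arrays, of which Kit made up 434 to 840, and 6 of the 8 measured did not pass the filter. The dendritic cell sum lay between 32130 and 50860 and had a median difference of -0.24 over its 7 tested genes. Over all arrays the sum of 7 measured B cell markers was 364 to 2030, and that of 6 T cell markers 489 to 2157. Both were highest on knockout spleen array A, while knockout spleen array B had 411 and 489. The median averaged knockout difference was -0.04 for the tested B cell markers and -0.70 for the tested T cell markers.

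**Figure D3:**
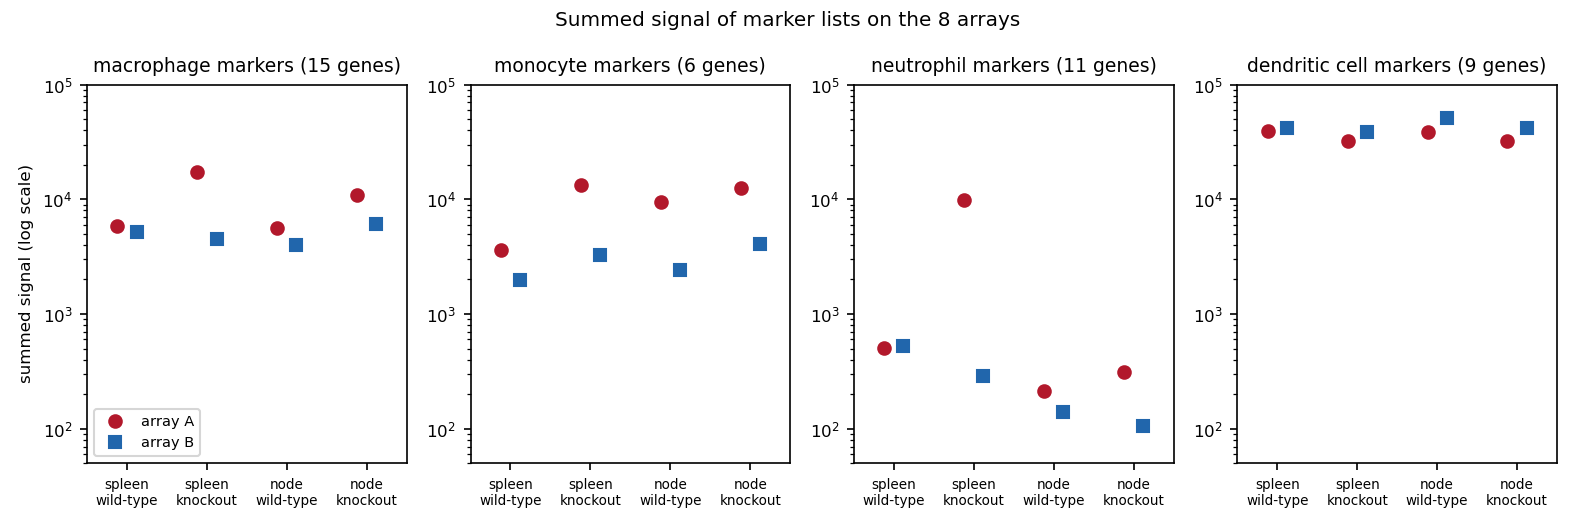
Summed signal (log axis) of the measured macrophage, monocyte, neutrophil and dendritic cell markers on the 8 arrays, with circles for array A and squares for array B; node means lymph node. Macrophage and monocyte sums are higher on array A in all 4 groups, and Lyz2 is most of the monocyte sum on those arrays. The neutrophil sum stands out at 9863 on knockout spleen array A, and the dendritic cell sum stays between 32130 and 50860.

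The comparison of spleen with lymph node, averaged over genotypes, was not used to choose the members and was tested for those not admitted through 1 tissue. The test took all 8 arrays as independent, with no pairing of the tissues. C5ar1 was chosen by its genotype p-value, and the same estimate of spread enters its tissue test. A small spread favours both, so its tissue p-value and interval may look stronger than they are. Of the tested members C5ar1 was lower in spleen and Cfb was higher there at an unadjusted p under 0.05 by limma, but none passed after adjustment. C5ar1 differed by -2.75 ± 0.45, a 6.71-fold lower signal in spleen, with a 95% interval from -3.81 to -1.68 (limma unadjusted p = 0.000522, adjusted p = 0.173). With the mean of its 2 probe sets the C5ar1 difference was -2.04. The signal of 1439902_at was lower in spleen within each genotype with no overlap, and by -4.73, -3.31, -0.67 and -2.28 for wild-type A, wild-type B, knockout A and knockout B. C3ar1 passed the filter through its 4 lymph node arrays and 1 spleen array, and its other spleen signals were near or under the floor, so its difference of -3.25 ± 0.74 is given as a description. It also did not overlap within either genotype. For the mean of its probe sets the C3ar1 difference was -1.88. Its probe set 1442082_at differed by -0.06 and was higher in spleen within wild-type, at 24.4 and 20.5 against 0.258 and 2.11. Within wild-type, spleen was lower without overlap for 3 of 7 members, both receptors and Cfp, beside 16.3% of all genes. Within knockout this held for 2 of 7, both receptors, beside 12.9%. C3ar1 is in both counts, so nothing is read from them.

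Cfb was higher in spleen by 1.36 ± 0.28, or 2.57-fold, with an interval from 0.70 to 2.02 (limma unadjusted p = 0.00184, adjusted p = 0.221). It was the only measured member whose 4 spleen arrays did not overlap with the 4 lymph node arrays, as was found with spleen higher in 3.85% of all genes. It was also the 1 of 7 members higher in spleen without overlap within wild-type, beside 25.6% of all genes, and within knockout, beside 17.7%. With a trended and robust prior the limma adjusted p was 0.0187 for C5ar1 and 0.033 for Cfb, so both passed under that setting. Over the alternatives that gave a test the limma adjusted p ran from 0.0187 to 0.406 and from 0.033 to 0.478.

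For C1qa, C1qb, C1qc and Cfp the tissue difference was not distinguishable from the spread between arrays. The values were -0.97 ± 1.5, -1.09 ± 1.0, -0.77 ± 1.11 and -0.99 ± 0.72, with limma adjusted p = 0.869, 0.751, 0.862 and 0.68. Their 95% intervals reached from -4.52 to 2.57, -3.47 to 1.28, -3.41 to 1.88 and -2.69 to 0.71. Without wild-type lymph node array A the difference was 0.47 for C1qa and 0.23 for C1qc.

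The median tissue difference of the 7 members was -0.99, against 0.06 over all genes tested, with 6 of 7 lower in spleen beside 44.2% of all genes. Both values include C3ar1, which passed the filter mainly through lymph node, so nothing is read from them. By limma 0 of 11575 genes, or 0%, passed an adjusted p of 0.05 for tissue. At an unadjusted p under 0.05 there were C5ar1 and Cfb, beside 10.8% of all genes, with C3ar1 not counted for the reason given. For the tissue-by-genotype interaction limma also called 0% of genes, and 3.4% had an unadjusted p under 0.05.

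**Figure D4:**
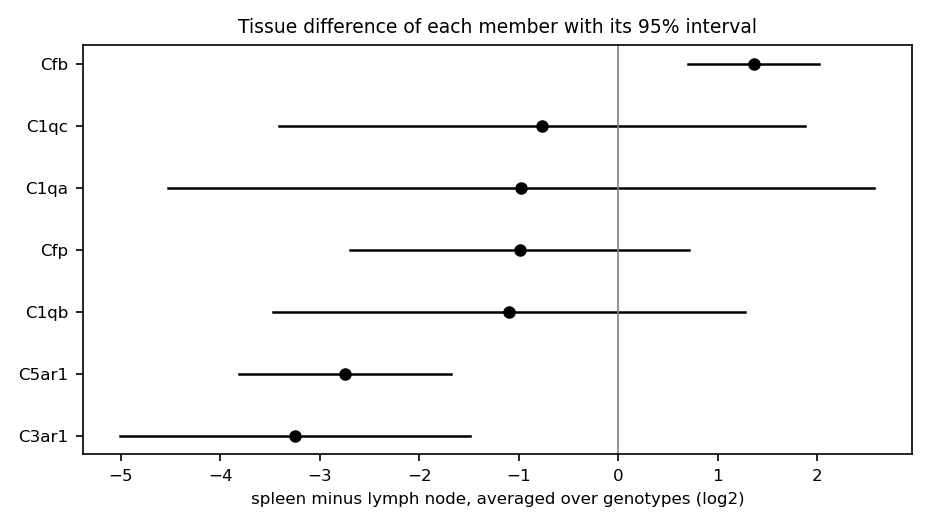
Spleen minus lymph node difference, averaged over genotypes (log2), of each measured member, with points for the estimate from 8 arrays and bars for its 95% interval. The bars of C5ar1 and Cfb do not reach 0, nor does that of C3ar1, whose value is a description, and those of Cfp and the C1q chains cross it.

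Beyond the members, 49 other complement genes were listed, of which 40 had a probe set with 1 symbol and 18 passed the filter. The 22 that did not pass included the serine proteases C1ra and C1s1, which C1q activates, the mannose-binding lectins Mbl1 and Mbl2, the terminal components Hc, which encodes C5, C8a, C8b and C9, and the regulators Cfi, C4bp and Serping1. Of these, Cfi was under the floor on all 8 arrays and Hc had at most 38.5, and C1ra reached 21.7 to 34.6 on 3 lymph node arrays and at most 5.02 elsewhere. By limma 0 of the 18 tested genes passed in any of the contrasts. At an unadjusted p under 0.05 there were 3 of 18 for the averaged genotype difference, beside 7.96% of all genes.

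Those 3 were Cd93, Lrp1 and Clu. Cd93, a surface protein of myeloid and endothelial cells once proposed as a C1q receptor, had 45.2 and 64.9 in wild-type spleen, 200 and 83.5 in knockout spleen, 35.8 and 122.5 in wild-type lymph node and 563 and 215.5 in knockout lymph node. It was higher in knockout by 1.82 ± 0.54 (limma adjusted p = 0.472), with no overlap within either tissue, as for 3.05% of all genes. Lrp1, a scavenger receptor that binds C1q, differed by 1.10 ± 0.40 (limma adjusted p = 0.556). Its 4 knockout signals, 44.5 to 136, lay above its 4 wild-type ones, 22.7 to 37.3, as for 1.43% of all genes. Clu, which encodes clusterin, an inhibitor of the terminal complex, was bright at 3043 to 9094 and differed by -0.70 ± 0.28 (limma adjusted p = 0.61). It was lower in knockout within both tissues without overlap. The share of all genes with that pattern was not counted, so nothing is read from it. C1qbp, Cd59a and Susd4 came next with differences of 0.68 ± 0.41, -0.47 ± 0.29 and 0.54 ± 0.35, none of which passed (limma adjusted p = 0.714, 0.724 and 0.733).

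Of 5 membrane regulators tested, 0 passed for tissue by limma, and at an unadjusted p under 0.05 there were 2 with spleen higher and 1 with lymph node higher. Cr2, the receptor for C3 fragments on B cells and follicular dendritic cells, had 312.5 and 145 in wild-type spleen, 184 and 158 in knockout spleen, 77.6 and 57.2 in wild-type lymph node and 52.3 and 77.4 in knockout lymph node. It was higher in spleen by 1.55 ± 0.32 (limma adjusted p = 0.226) with no overlap, as for 3.85% of all genes. Cd59a, which blocks the membrane attack complex, was higher in spleen by 0.84 ± 0.29 and Susd4, a complement regulator, differed by -1.13 ± 0.35 (limma adjusted p = 0.385 and 0.351). These were the 3 of 18 genes with an unadjusted p under 0.05 for tissue, beside 10.8% of all genes. Clu, Calr and Colec12 followed, with limma adjusted p = 0.56, 0.563 and 0.614.

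The genes whose log2 signal was most like that of C5ar1 over the 8 arrays, by Pearson's r, were Zbp1 (0.986), Ifitm3 (0.975), Lrrc42 (0.972), Topbp1 (0.968) and Wdr34 (0.962). For the mean of the C1q chains they were Hpse (0.975), Acss1 (0.974), Slc25a37 (0.973), Fli1 (0.969) and Ifit2 (0.967). The 2 sets share no gene, but such short lists from 11575 genes can miss a shared pattern, so nothing is read from that. Zbp1 had 77.1 and 98.4 in wild-type spleen, 396 and 309 in knockout spleen, 235 and 285 in wild-type lymph node and 664 and 575.5 in knockout lymph node. Hpse, the heparanase gene, had 154 and 90.6, 601 and 162, 298 and 67.7, and 438 and 249. Among the members r was 0.939 to 0.976 between C1q chains and 0.622 to 0.737 between C5ar1 and a C1q chain. These values describe 8 arrays that share tissue, genotype and letter, and the highest were picked from 11575 genes.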

How the data were processed

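RNA of 8 mouse samples was hybridised to 1-colour Affymetrix arrays. The intensity values deposited by the authors are 1 signal per probe set from MAS5, per the submitters' processing notes; its version and any detection calls are not recorded there. Of 45101 probe sets 64 controls were left out, 34945 carried 1 gene symbol, 932 several and 9160 none. Array medians ranged over 0.279 (log2), above the tolerance of 0.2, so arrays were shifted to a common median, signals were raised to the 20th percentile, and log2 was taken. For each gene the probe set with the highest mean was kept. A mean per group was fitted to all 8 arrays with limma 3.58.1 in R 4.3.3, with empirical Bayes moderation (4 residual and 2.90 prior degrees of freedom) and Benjamini-Hochberg adjustment over 11575 genes at 0.05. The scripts were tested on simulated data. The number of arrays limits the precision. The labels do not say how many animals each array holds, so each p-value reflects only the spread of these samples. The members and lists were chosen with earlier results of these data known. All members are named, and of the other complement genes the 6 with the smallest p for genotype and for tissue. Genes most like C5ar1 and C1q are the 5 with the highest Pearson's r. Of 49 other complement genes 9 had no probe set with 1 symbol and are not analysed here. Sequences are from RefSeq windows of GRCm38.p6.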

Additional observations from a re-analysis of the deposited data

How the results depend on the processing

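Of the 22 alternatives to the processing, 3 were added after seeing the data: leaving out both knockout A arrays, and A or B arrays alone. The count of genes called by limma, 0 in each contrast, was 1 for tissue with quantile normalization, without scaling, without a filter or with the mean of probe sets, and 44 with a trended and robust prior. For the averaged knockout effect it was 2 without the floor, 3 with the floor added, a stricter filter or every probe set tested, and 5 with the trended and robust prior. In spleen it was 1 without the floor and with that prior and 2 with every probe set tested, and in lymph node 3 with every probe set tested. With 1 array left out the counts ran from 0 to 3 for tissue and 0 to 2 for the averaged knockout effect, and stayed at 0 for the others. The median difference of the members then ran from 0.74 to 4.24 in spleen, 0.47 to 3.14 in lymph node and 1.25 to 3.01 averaged for knockout minus wild-type, from -1.78 to -0.30 for tissue and from -1.29 to 2.12 for the difference between knockout effects. Without both knockout A arrays it was 0.74 in spleen and 0.91 averaged, and with a covariate for Y-linked signal 3.79 and 3.31. The tissue difference of C1qa turned to 0.02 without wild-type spleen array B and to 0.47 without wild-type lymph node array A, and that of C1qc to 0.23 without the latter; with 1 array left out they ran from -2.42 to 0.47 and from -1.76 to 0.23. The tissue differences of the other 5 members kept their sign under all 22. The cause of these shifts was not tested. C1qa was under the floor on both wild-type B arrays and C3ar1 on knockout spleen array B, so their differences there depend on the floor, and the dim probe sets of C5ar1, C3ar1 and Cfp carry little signal over background.

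The letters A and B pair no samples by the labels. Sex-linked signals were alike in spleen and lymph node arrays of the same genotype and letter. Xist was at 14.6 and 23.1 on the knockout B arrays, and Eif2s3y at 21.2 and 3.80 on the wild-type A arrays. Whether such arrays share animals is not given, and no fit paired the tissues within genotype and letter. The deviations of the A arrays from their group means correlated between groups at 0.059 to 0.307. With the letter as a replicate block, limma called 0 genes in each contrast, and the limma adjusted p for tissue moved from 0.869 to 0.583 for C1qa, from 0.751 to 0.348 for C1qb and from 0.862 to 0.487 for C1qc. In this balanced design the block leaves each estimated difference as it was, with a median of -0.99 for tissue.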
